A study of Mus musculus with 14 samples.

Results

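Complement is a cascade of plasma and cell-bound proteins that tags particles for removal. C1q opens the classical branch together with the C1r and C1s proteases. The thioester proteins C4 and C3 are then cleaved, and their fragments bind to the target surface. C2 and factor B are the proteases of the enzymes that cleave C3, properdin and C1 inhibitor adjust the cascade, and the small fragments C3a and C5a act through receptors on myeloid cells. Hepatocytes secrete most complement proteins of plasma, whereas C1q and properdin come mainly from myeloid cells. The genes described are 9 complement components, regulators and receptors other than C1q, taken by symbol: C2, Cfb, C3, C4b, C1ra, Cfp, Serping1, C3ar1 and C5ar1. They are 9 of the 19465 genes in the feature table of a C1qa cross, and all 9 are also in the 32589-feature table of the purchased mice. The question asked of them was whether other components shift when C1qa is lost, and where and when they are expressed.

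The study mapped gene expression in blood-forming organs of mice with Visium, a spatial assay in which probes for each gene are captured on an array of spots, each of which covers several cells. There were 14 sections. From purchased wild-type C57BL/6 mice there was 1 section each of E13.5 fetal liver, E14.5 fetal liver, marrow of leg bones at P8, at 89 weeks, and after decalcification with EDTA from a mouse of 6 months, and adult spleen. From a cross of C1qa heterozygous mice there were 2 sections in each of 4 groups: wild-type and C1qa knockout E14.5 fetal livers, numbered 2 and 4, and wild-type and C1qa knockout spleens from mice of 3 months per the labels, numbered 1 and 2. The knockout is germline, so that all cells of the animal lack C1qa. The controls were wild-type and carried no other stated allele, and no group was treated. Wild-type and knockout livers of the same number were from 1 litter.

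Counts of unique molecules (UMIs) were summed for each section over its spots on tissue, leaving out spots in which fewer than 1000 genes were detected, and levels are given as counts per 1000000 UMIs (CPM). The sums ranged from 4225805 to 56182915 UMIs in 13 sections. The EDTA-decalcified marrow kept 15 spots and 37167 UMIs, in which the 9 genes together had 22 counts, so its values are not used below. C1qa had 1939 and 1023 counts in the wild-type livers against 1 and 1 in the knockout livers, and 4343 and 1135 counts in the wild-type spleens against 2 and 1 in the knockout spleens. All spleens held near-zero shares of a 15-gene hepatocyte marker list, 0.0201 to 0.0278% of UMIs. The livers were not alike: the list took 12.4% of UMIs in wild-type liver 2, 5.96% in knockout liver 2, 1.36% in knockout liver 4 and 0.844% in wild-type liver 4. Spots with at least 0.5% of UMIs from the list were 94.4 and 96.8% of the spots in the livers numbered 2, but 64.2% in knockout liver 4 and 30.8% in wild-type liver 4. The other spots of the livers numbered 4 did not carry the defining markers of liver at that level, although the sections are labelled fetal liver. In the spleens, pancreas markers took 3.16% of UMIs in knockout spleen 2, 0.471% in knockout spleen 1, 0.120% in wild-type spleen 2 and 0.00894% in wild-type spleen 1.

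Across the 13 sections, each of the 9 genes varied between its lowest and highest section by 5.71-fold for C3ar1 to 302-fold for C4b. The levels fell into a few patterns. C2, Cfb and C3 were highest in wild-type fetal liver 2, whose hepatocyte share was also the highest. C1ra, C4b and Serping1 were highest in a spleen of the cross, Cfp in the purchased spleen, C5ar1 in the marrow at 89 weeks, and C3ar1 in a fetal liver. C4b and C1ra have near-identical neighbours (C4a and C1rb), so that probes could share their transcripts and the values of both genes are uncertain in that respect. C4a was at 0 counts in all purchased sections. Levels of different genes are not compared here, because each gene has its own probes.

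**Figure D1:**
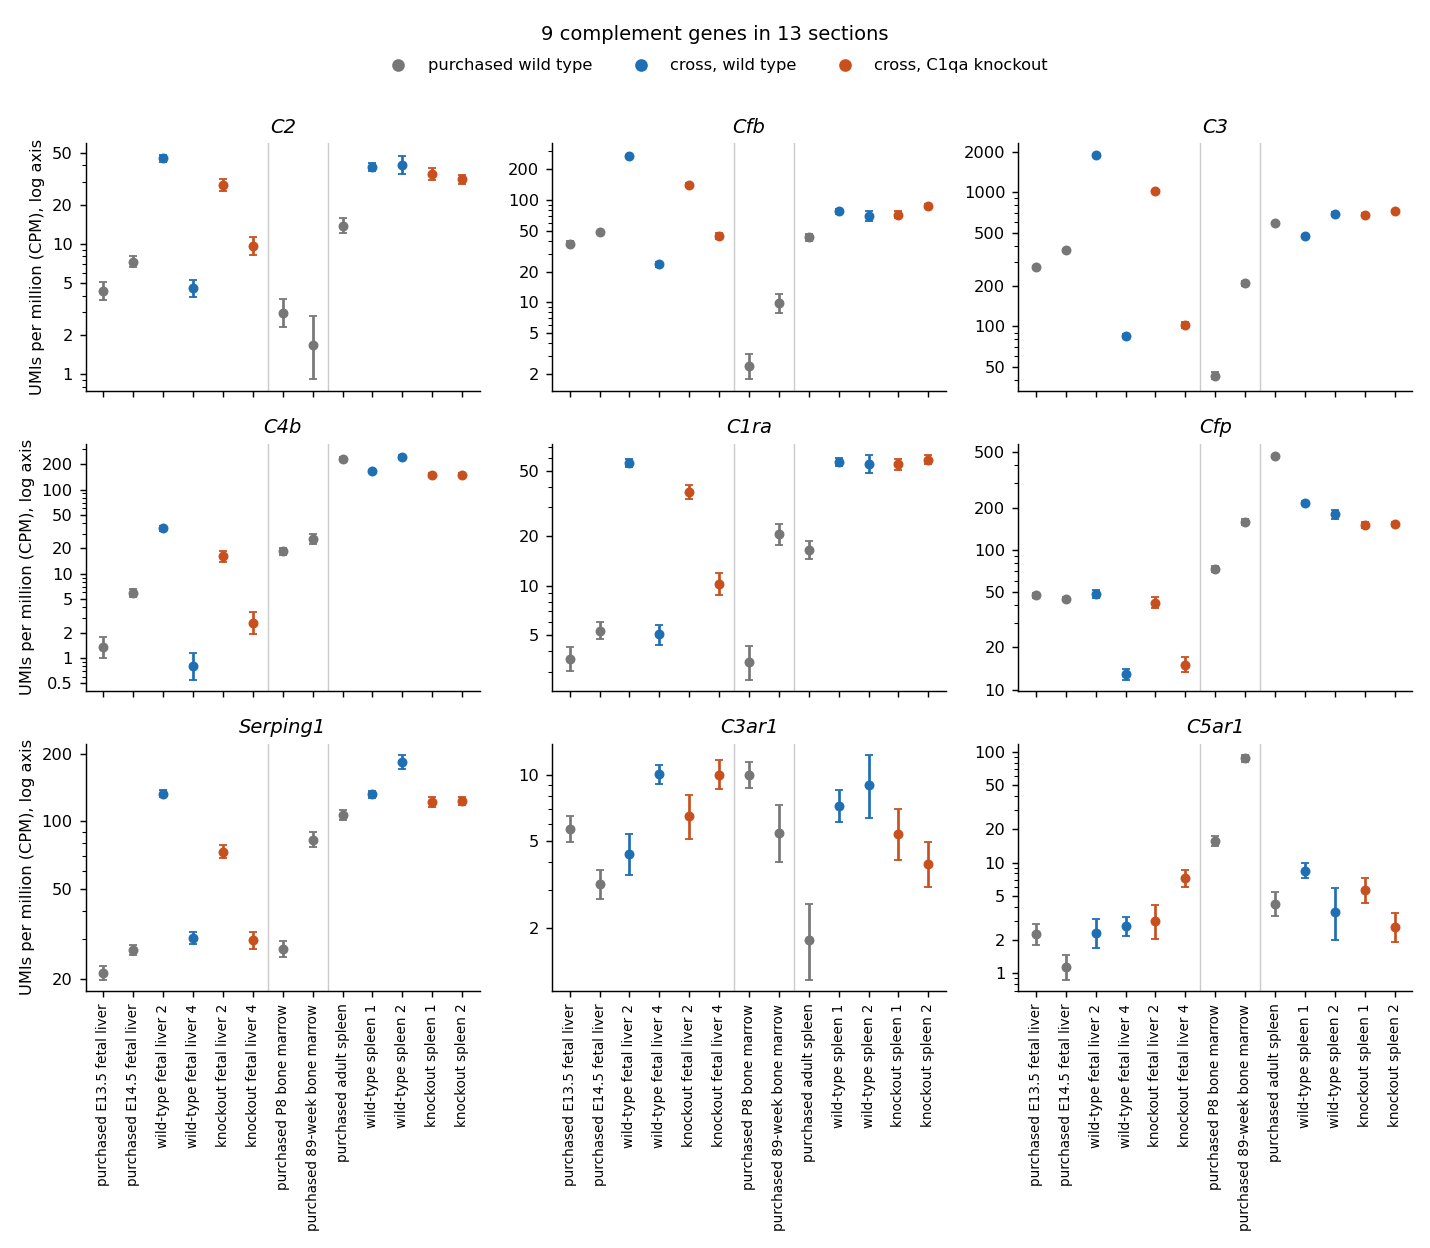
CPM of each gene (log axis, 1 panel per gene) in 13 sections, grouped as fetal liver, bone and spleen; points are sections and bars are 95% exact Poisson intervals, which cover counting error only. Within fetal liver, C3 ran from 85.0 CPM in wild-type liver 4 to 1886 CPM in wild-type liver 2, and in bone C5ar1 reached 87.3 CPM.

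In the 4 fetal livers of the cross, the proteases of the convertases followed the order of the hepatocyte share of the section. C2, the protease that joins C4b, was at 45.3 and 4.55 CPM in wild-type livers 2 and 4 and at 28.2 and 9.63 CPM in knockout livers 2 and 4. Cfb, its counterpart in the alternative branch, was at 269.8 and 23.4 CPM in the wild-type and 139 and 44.7 CPM in the knockout livers. In both genotypes the liver numbered 2 was far above the liver numbered 4, so that the genotypes overlapped. In the purchased livers Cfb was at 37.4 CPM at E13.5 and 48.4 CPM at E14.5, between those levels, and C2 was at 4.33 and 7.28 CPM. The order did not extend to these livers. Their hepatocyte shares, 2.37 and 3.68%, were above that of knockout liver 4 (1.36%), but their C2 was lower.

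The thioester proteins differed even more between livers of 1 genotype. C3, whose cleavage is the central step of the cascade, was at 1886 CPM in wild-type liver 2 and 85.0 CPM in wild-type liver 4, a ratio of 22.2. In the knockout livers it was at 1025 and 102 CPM. C4b, the classical and lectin branch component, was at 34.6 and 0.808 CPM in the wild-type and 16.1 and 2.62 CPM in the knockout livers. The spread between sections of the same genotype was thus larger than any difference between the genotype means for these genes. C1ra, a protease that works in complex with C1q, followed the same order, with 55.8 and 5.05 CPM in the wild-type and 37.1 and 10.3 CPM in the knockout livers.

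The regulators varied less. Cfp, which encodes properdin and stabilises the alternative convertase, was at 48.4 and 12.9 CPM in the wild-type and 41.8 and 15.0 CPM in the knockout livers. Serping1, the C1 inhibitor, was at 133 and 30.3 CPM in the wild-type and 73.3 and 29.6 CPM in the knockout livers. The receptors showed no excess in the livers numbered 2. C3ar1, the receptor of C3a, was at 4.35 and 10.1 CPM in the wild-type and 6.49 and 10.1 CPM in the knockout livers, and was thus higher in the livers with the smaller hepatocyte share. Those livers, numbered 4, also had more UMIs from the fibroblast list, 0.631% in the wild-type and 0.372% in the knockout against 0.127 and 0.167% in the livers numbered 2. C3ar1 was higher in the fibroblast-rich spots of 6 of 6 livers, with ratios of 1.07 to 3.17 between the richest and the poorest of 3 equal groups of spots. The part of either share in the differences between livers was not tested. C5ar1, the receptor of C5a, was at 2.33 and 2.68 CPM in the wild-type and 2.94 and 7.26 CPM in the knockout livers. It was the only gene of the 9 whose genotypes did not overlap in this tissue. The share of all genes whose genotypes did not overlap was not counted, so this separation alone marks no genotype effect.

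The hepatocyte share was also followed among the spots of single livers. The spots of each section were ranked by the share of their UMIs from the hepatocyte list and split into 3 tiers of equal size, and the top tier was set against the bottom tier, as a description without a test. C2, Cfb, C3, C4b and C1ra were higher in the hepatocyte-rich tier in 6 of 6 livers. The ratio for C3 was 1.64 to 1.75 in the livers numbered 2 and the purchased livers, 17.8 in knockout liver 4 and 73.1 in wild-type liver 4. Only 64.2% of spots in knockout liver 4 and 30.8% in wild-type liver 4 reached 0.5% of UMIs from the list. The poorest tiers of these 2 livers thus lay below that level, and their ratios set spots with liver markers against spots short of them. In the poorest tier of wild-type liver 4, C3 was at 2.54 CPM against 186 CPM in the richest tier. Cfb had ratios of 27.2 and 12.9 in wild-type and knockout liver 4. Serping1 was higher in the rich tier in 4 of 6 livers, with a range of 0.868 to 1.74, and it was in the livers numbered 4 that it was not. C3ar1 was higher in only 2 of 6, with a lowest ratio of 0.522 in wild-type liver 4, and Cfp and C5ar1 showed no common direction.

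**Figure D2:**
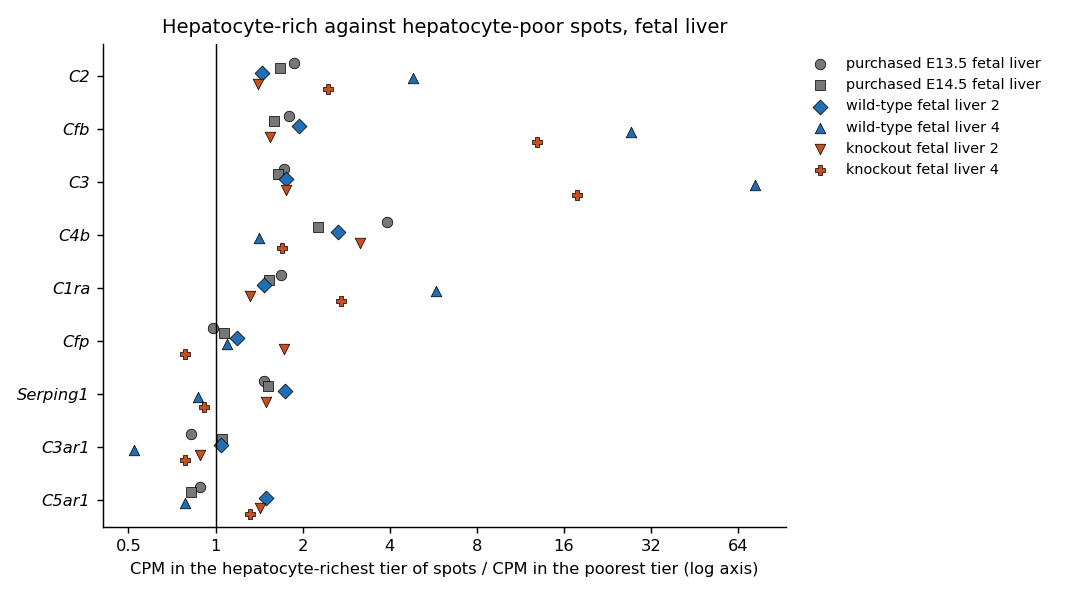
Ratio of each gene's CPM in the tier of spots richest in hepatocyte markers to that in the poorest tier (log axis), with 1 point per fetal liver section. All 6 points of C2, Cfb, C3, C4b and C1ra lie above 1, with C3 at 73.1 in wild-type liver 4, whereas C3ar1 reaches down to 0.522. The poorest tiers of the livers numbered 4 lay below 0.5% of UMIs from these markers.

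Between the purchased livers, 1 section each and without a replicate check, C4b was the only gene past 2-fold, at 5.86 CPM (95% Poisson interval 5.24 to 6.52) at E14.5 and 1.33 CPM (0.991 to 1.75) at E13.5, a ratio of 4.40. The hepatocyte list took 3.68% of UMIs at E14.5 and 2.37% at E13.5. C2, C3, C1ra, Cfb and Serping1 were 1.27 to 1.68 times as high at E14.5. C3ar1 and C5ar1 were lower, at 0.557 and 0.502 times the E13.5 level. Intervals of this kind cover counting error only, not variation between animals. How many of all genes were past 2-fold between these livers was not counted.

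In bone marrow, the receptor of C5a stood out. C5ar1, which neutrophils carry, was at 15.8 CPM at P8 and at 87.3 CPM at 89 weeks, whereas no liver or spleen exceeded 8.48 CPM. A neutrophil marker list took 0.755% of UMIs at P8 and 2.95% at 89 weeks. Among spots, C5ar1 was 2.51 times as high in the neutrophil-richest as in the neutrophil-poorest tier at P8 and 1.496 times at 89 weeks. Compared with P8, the section at 89 weeks was past 2-fold higher for 6 genes: C1ra (6.05 times), C5ar1 (5.53), C3 (4.88), Cfb (4.16), Serping1 (3.06) and Cfp (2.17). C2, C3ar1 and C4b stayed within 2-fold. The share of all genes past 2-fold between these sections was not counted, so the 6 genes cannot be set against a background. The 2 sections also differed in preparation, since the marrow at 89 weeks was cryosectioned without decalcification, so that age and preparation cannot be told apart. They held different tissue too: at P8 the fibroblast list took 11.6%, bone and cartilage markers 3.54% and skeletal muscle markers 0.755% of UMIs, against 0.0522%, 0.00945% and 0.00187% at 89 weeks. The part of these shares in the ratios was not tested. The spots of the P8 section were uneven as well. In the tier richest in bone and cartilage markers, C4b was 12.6 times as high as in the poorest tier, whereas C3 was at 0.123 times.

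In the spleens of the cross, the components and regulators were closer together across the 4 sections than in the livers, whereas C3ar1 and C5ar1 spread about as widely as they did there. C2 stood at 39.1 and 40.5 CPM in the wild-type group and at 34.6 and 31.3 CPM in those of the knockouts. Cfb was at 77.5 and 69.3 CPM in the wild-type and 72.1 and 86.9 CPM in the knockout spleens. The knockout values of C2 were both below the wild-type values, and those of Cfb lay on both sides. In wild-type spleens 1 and 2, C3 was at 472 and 689 CPM, and in their knockout counterparts at 680.1 and 724 CPM. C4b was at 167 and 244 CPM in the wild-type and 148 and 151 CPM in the knockout spleens. For both thioester genes the wild-type spleens were more apart from each other than the knockout spleens were. C1ra was at 56.7, 55.1, 54.8 and 58.7 CPM in the same order, with the genotypes overlapping.

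Among the regulators, Cfp was at 217 and 179 CPM in the wild-type and 151 and 153 CPM in the knockout spleens. Serping1 was at 132 and 184 CPM in the wild-type and 122 and 123 CPM in the knockout spleens. Neither gene's groups overlapped on the CPM scale, with the knockouts lower, but both overlapped after the scaling used for the tests below. C3ar1 was at 7.22 and 8.99 CPM in the wild-type and 5.38 and 3.94 CPM in the knockout spleens, without overlap on either scale. It was counted 38 to 144 times per section. C5ar1 was at 8.48 and 3.55 CPM in the wild-type and 5.67 and 2.63 CPM in the knockout spleens, which overlapped. In spleen too, the share of all genes without overlap was not counted, so separation of the groups alone marks no genotype effect. The purchased spleen had more Cfp (465 CPM) and less C1ra (16.5 CPM), C2 (13.8 CPM) and C3ar1 (1.77 CPM) than any spleen of the cross. These sets of sections differed in mice and processing, so their values were not tested against each other.

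Within the spleen, the genes were placed differently. Spots were ranked by the balance of a white-pulp list (B and T cell genes) and a red-pulp list (red-pulp macrophage and erythroid genes). C3 was 2.36 to 3.14 times as high in the white-pulp-leaning tier as in the red-pulp-leaning tier in 5 of 5 spleens. In wild-type spleen 1 it was at 664 against 211 CPM, and in knockout spleen 2 at 918.5 against 375 CPM. Cfb followed it, with ratios of 1.91 to 2.58 in 5 of 5 spleens. Cfp had the reverse placement, with ratios of 0.484 to 0.572 in 5 of 5. The same placement of these 3 genes was seen in both genotypes and in the purchased spleen. C2, C1ra and Serping1 were near even, with medians of 0.958, 0.972 and 1.07. C4b was 0.885 in the purchased spleen, 1.02 and 1.22 in the wild-type and 1.40 and 1.68 in the knockout spleens. The counts of C3ar1 and C5ar1 per tier were low, and their ratios spread from 0.303 to 1.26.

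**Figure D3:**
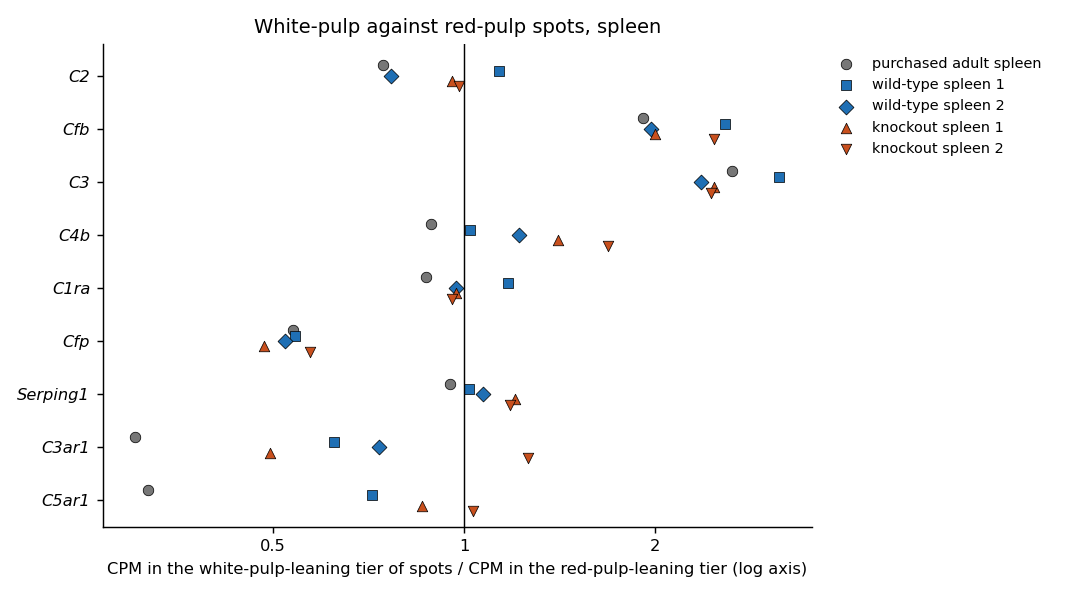
Ratio of each gene's CPM in the white-pulp-leaning tier of spots to that in the red-pulp-leaning tier (log axis), with 1 point per spleen section; C5ar1 is left out for wild-type spleen 2, where a tier held no more than 3 counts. C3 (2.36 to 3.14) and Cfb (1.91 to 2.58) lie above 1 and Cfp (0.484 to 0.572) below 1 in all 5 spleens.

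Other lists were used in the same way. In the tier of spots richest in fibroblast markers, C4b (ratios of 1.25 to 1.91), Serping1 (1.33 to 1.72), C1ra (1.16 to 1.63) and C3 (1.08 to 1.45) were higher in 5 of 5 spleens. In the tier richest in macrophage markers, Cfp was higher in 13 of 13 sections, with ratios of 1.26 to 2.66 and a median of 1.93. C3ar1 was higher in 12 of 13, with a median of 1.37. Spots were also ranked by C1qc and by C1qb, the C1q chains that remained in the knockouts. Cfp was higher in the C1qc-rich tier in 12 of 13 sections (median ratio 1.39) and C3ar1 in 13 of 13 (median 1.30). Ranked by C1qb, Cfp was higher in 12 of 13 (median 1.32), but C3ar1 in only 9 of 13 (median 1.31, lowest 0.625). C3 and Cfb, in contrast, were lower in the C1qc-rich tier in 5 of 5 spleens, at 0.503 to 0.856 and 0.541 to 0.670. They were lower in the C1qb-rich tier in 5 of 5 spleens too, at 0.503 to 0.933 and 0.570 to 0.973. None of the 9 genes is in these lists, although the macrophage and red-pulp lists share members. A spot mixes cells, so these ratios describe neighbourhoods and not the cells that made the RNA.

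Knockout and wild type were first compared in spleen, with the edgeR quasi-likelihood F test on summed counts and Benjamini-Hochberg adjustment over all genes tested. Of the 9 complement genes, 0 passed an adjusted p of 0.05, by edgeR and by DESeq2. Over all genes 3886 of 18895 (20.6%) passed in edgeR and 14.0% in DESeq2. In edgeR 13.8% of all genes were higher and 6.79% lower in the knockout. At an unadjusted p under 0.05 there were 2 of the 9. C3 had a log2 fold change of 0.54 (SE 0.21), a fold of 1.45, with an edgeR adjusted p of 0.0738. Cfb had 0.38 (SE 0.18), with an edgeR adjusted p of 0.120. C1ra was at 0.28, C2 at -0.01, Serping1 at -0.10, Cfp at -0.12 and C4b at -0.19, with SEs of 0.17 to 0.19. C3ar1 (-0.52, SE 0.30) and C5ar1 (-0.50, SE 0.38) were the least precise. The median log2 fold change was -0.10 over the 9 genes and -0.08 over all genes.

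These fold changes are relative to the TMM scaling factors, which correct for differences in RNA composition and were 1.09 and 1.10 in the wild-type against 0.967 and 0.865 in the knockout spleens. On that scale C2, C4b, Cfp and Serping1, separate by CPM, overlapped between genotypes, with Cfp at 199 and 163 against 156 and 177. C3 (434 and 627 against 703 and 837), Cfb and C1ra, which overlapped by CPM, were separate with the knockouts higher. The share of all genes separate on that scale was not counted. The choice mattered. With upper-quartile factors the median over all genes moved to -0.37, 29.6% of genes passed, and 2 of the 9 did: C4b at -0.48 (edgeR adjusted p = 0.0299) and Cfp at -0.42 (edgeR adjusted p = 0.0484), both lower in the knockout. C3 was then at 0.25 (edgeR adjusted p = 0.339). With library totals alone, an alternative added after the data were seen, the median over all genes was -0.34, 24.9% passed and 0 of the 9 did, with C4b at -0.45 (edgeR adjusted p = 0.0511). The direction of C1ra also turned with upper-quartile factors (-0.01). The single library that decided a call was wild-type spleen 2, the shallowest of the 4. Without it, 19.7% of genes passed and C3 was the 1 gene of the 9 among them, higher in the knockout by 0.82 (SE 0.17, edgeR adjusted p = 5.47e-05), while C4b and Serping1 turned to 0.09 and 0.15.

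Several marker lists moved with genotype in spleen. The erythroid list took 0.428 and 0.172% of UMIs in the wild-type against 0.0444 and 0.0811% in the knockout spleens. The neutrophil list took 0.0786 and 0.0717% against 0.0132 and 0.0193%. The white-pulp list took 0.952 and 0.947% against 1.09 and 1.00%, so C3 and Cfb, both higher in white-pulp-leaning spots, sat beside a slightly larger white-pulp share. The red-pulp list took 0.442 and 0.217% against 0.145 and 0.177%, the fibroblast list 0.100 and 0.112% against 0.0779 and 0.0695%, and the endothelial list 0.0708 and 0.0635% against 0.0578 and 0.0543%. C4b and Serping1, higher in fibroblast-rich spots, were lower in the knockouts by CPM, though not separate after TMM scaling, beside a smaller fibroblast share. C1ra and C3, also higher in fibroblast-rich spots, were not lower. Their means were 55.9 and 580 CPM in the wild-type and 56.7 and 702 CPM in the knockout spleens. Cfp, higher in red-pulp-leaning spots, was lower by CPM, though not separate after TMM scaling, beside a smaller red-pulp share. The part of these shares in the fold changes was not tested. Within the white-pulp-leaning and red-pulp-leaning tiers tested alone, 0 of the 9 genes passed in edgeR, where 10.7% and 20.2% of all genes did, with 1 and 3 of the 9 at an unadjusted p under 0.05. Without the spots rich in pancreas markers 0 of the 9 passed either, against 22.2% of all genes, and C3 was at 0.55 (edgeR adjusted p = 0.0514). In these sums, fewer cells of a type and less RNA per cell cannot be told apart.

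In fetal liver, 0 of the 9 genes and 0 of 18986 genes (0%) passed in edgeR, with 0 and 138 at an unadjusted p under 0.05. DESeq2 called 0 of the 9 and 7 genes in all (0.0369%). The log2 fold changes were -0.70 for C2, -0.97 for Cfb, -1.01 for C3, -1.18 for C4b, -0.63 for C1ra, -0.33 for Cfp and -0.92 for Serping1, with SEs of 1.02 to 1.74. C3ar1 was at 0.07 (SE 0.54) and C5ar1 at 0.65 (SE 0.61). The SEs were as large as or larger than the differences for 8 of the 9 genes, and even C1qa itself (log2 fold change -10.25) did not pass, with an edgeR adjusted p of 1.00. The median log2 fold change over the 9 genes was -0.70 and over all genes -0.00.

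The fit within litters had smaller errors for 9 of the 9 genes. With the litter as a replicate block, 157 of 18986 genes (0.827%) passed in edgeR, C1qa among them, and 0 of the 9 complement genes. The SEs of C2, C3, C4b, C1ra, Cfb, Cfp and Serping1 fell to between 0.28 and 0.37, and their fold changes moved toward 0: C3 to -0.53, Cfb to -0.24, C4b to -0.14, C2 to -0.05 and C1ra to -0.03. Serping1 kept the largest difference among them, -0.67 (SE 0.28), with an unadjusted p of 0.0162 and an edgeR adjusted p of 0.513. Its wild-type and knockout levels were 133 and 73.3 CPM in the livers numbered 2. In the livers numbered 4 they were nearly equal, at 30.3 and 29.6 CPM. Over hepatocyte spots alone, without the block, 0 of the 9 and 0.00543% of all genes passed in edgeR, and C3 was at -1.02. Without wild-type liver 2, the section richest in hepatocyte markers, 7 of the 9 genes turned to higher in the knockout. C4b then passed at 4.14 (edgeR adjusted p = 0.0200), against a background of 0.568% of genes.

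**Figure D4:**
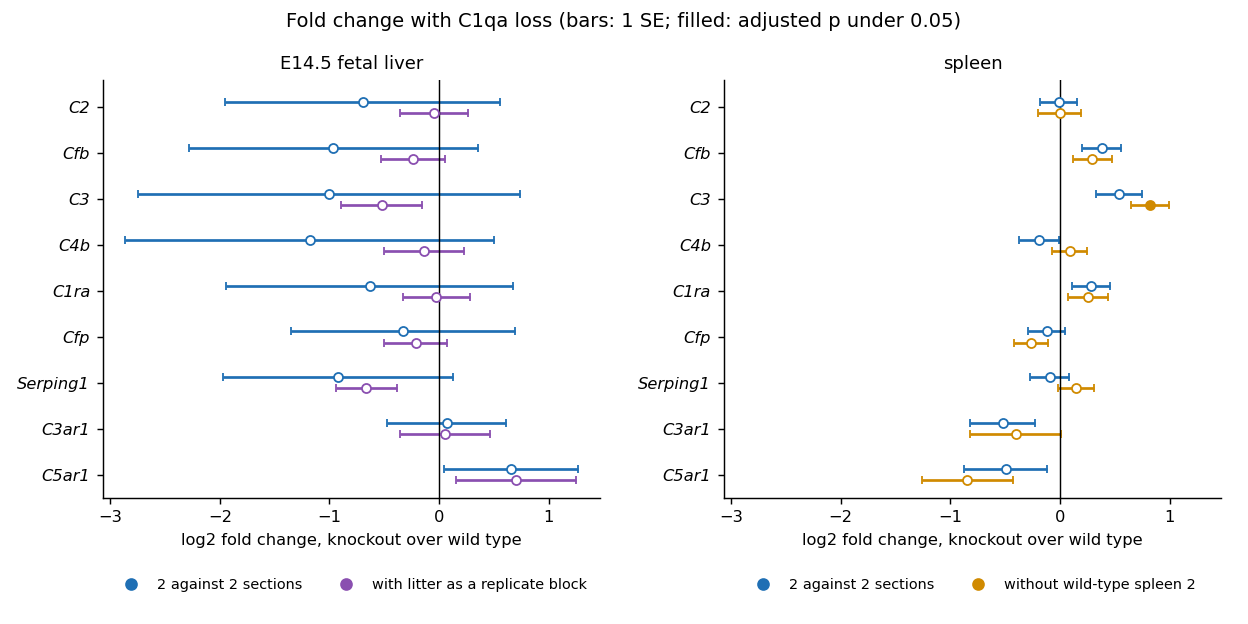
Log2 fold change of knockout over wild type for each gene in fetal liver (left; 2 against 2 sections, and with litter as a replicate block) and spleen (right; 2 against 2 sections, and without wild-type spleen 2); bars are 1 SE and filled points passed an adjusted p of 0.05. The litter block moved C3 in fetal liver from -1.01 to -0.53, and in spleen C3 went from 0.54 to 0.82 without wild-type spleen 2. That last fit, the only filled point of C3, rests on 1 wild-type section and holds no spread between wild-type spleens.

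A fit with a genotype-by-tissue interaction over the 8 sections of the cross asked whether the knockout effect differed between tissues. Of the 9 genes 0 passed, and of all genes 0 of 19180 (0%), by edgeR, with 0 and 2018 at an unadjusted p under 0.05. DESeq2 called 0 and 9 (0.0469%). With a litter term for the livers, 7.35% of genes passed and again 0 of the 9. C3 came nearest, with a spleen effect above the liver effect by 1.06 (SE 0.43, edgeR adjusted p = 0.107).

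The other complement genes, the C1q chains included, were counted from a list of 45, of which 43 were in the cross table. In spleen 41 were tested and 10 passed in edgeR, 6 higher and 4 lower in the knockout, where 20.6% of all genes passed. The 10 and the 4 lower ones include C1qa, whose fall was fixed by its deletion and which had the smallest adjusted p of the lower ones. Among the initiators, Fcnb (ficolin B, a recognition protein of the lectin branch) was lower (-1.15, edgeR adjusted p = 0.00946), at 9.53 and 11.6 CPM in the wild-type and 4.44 and 3.45 CPM in the knockout spleens. Mbl2 (mannose-binding lectin) was lower (-0.998, edgeR adjusted p = 0.0273) and so was C1rb (-0.79, edgeR adjusted p = 0.0302). C1qb, a partner chain of C1qa, was higher, at 73.5 and 62.5 CPM in the wild-type and 81.9 and 119 CPM in the knockout spleens (0.83, edgeR adjusted p = 0.00759), while C1qc was at 220.4 and 255 against 242 and 264 CPM.

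The membrane regulators and receptors held the larger increases. Cd55, which dissociates the convertases on host cells, was at 88.9 and 74.1 CPM in the wild-type and 165 and 199.9 CPM in the knockout spleens (1.42, edgeR adjusted p = 5.09e-05). Cr2, the receptor of C3 fragments on B cells and follicular dendritic cells, was at 529.8 and 246 CPM in the wild-type and 921 and 885 CPM in the knockout spleens (1.47, edgeR adjusted p = 9.08e-04). Cr1l (0.47, edgeR adjusted p = 0.0444) and Itgax, a chain of the complement receptor 4 integrin (0.59, edgeR adjusted p = 0.0248), were also higher. Cd55, Cr2 and C1qb passed under TMM, upper-quartile and library-total scaling alike, with the same direction, whereas Cr1l and Itgax passed only under TMM of these 3. Of the terminal components, which form the membrane pore, 0 of 7 passed in edgeR. Without knockout spleen 2 the list had 2 genes past the threshold instead of 10, and over all genes the share fell to 1.27%. That fit rests on 1 knockout section and holds no spread between knockout spleens. In fetal liver 0 of 42 passed in edgeR, with 1, C1qa, at an unadjusted p under 0.05. With the litter block 2 did, C1qa among them.

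Spleen and fetal liver of the cross were compared with genotype as a term. Tissue and age cannot be told apart here, since 1 tissue was embryonic and the other adult. Of the 9 genes 1 passed in edgeR, where 46.8% of all genes did (21.2% higher and 25.6% lower in spleen). It was C3ar1, lower in spleen at -0.99 (SE 0.29, edgeR adjusted p = 0.0209), although its CPM values overlapped between tissues. It passed in 9 of 15 alternatives and kept its direction in 15 of 15, with adjusted p from 0.00318 to 0.226. C4b, at 148 to 244 CPM in spleen and 0.808 to 34.6 CPM in liver, did not overlap between tissues, with a log2 fold change of 2.67 (SE 1.03) and an edgeR adjusted p of 0.0556. Cfp, at 151 to 217 CPM in spleen and 12.9 to 48.4 CPM in liver, did not overlap either, with 1.56 (SE 0.60) and an edgeR adjusted p of 0.0535. Cfb (-1.65) and C3 (-1.35) were the largest differences toward liver, with SEs of 0.81 and 1.04, and their values in the 2 tissues overlapped.

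The comparison depended on the livers numbered 4. When liver sums were taken over hepatocyte spots, an alternative added after the data were seen, 52.1% of genes and 4 of the 9 passed in edgeR: C4b (2.61) and Cfp (1.51) were higher in spleen, and Cfb (-1.77) and C3ar1 (-0.86) were lower. Without both livers numbered 4, also added later, 74.0% of genes and 8 of the 9 passed. C4b (1.67) and Cfp (0.76) were higher in spleen, and C3 (-2.37), Cfb (-2.58), C2 (-1.19), C3ar1 (-1.01), C1ra (-0.90) and Serping1 (-0.71) were lower. C1ra and Serping1 thereby turned from 0.01 and 0.10 to lower in spleen. With upper-quartile factors the median over all genes moved from 0.10 to 0.51, 42.1% of genes passed, and C4b and Cfp were called but C3ar1 was not. DESeq2 called 2 of the 9, C3ar1 and Cfp, and 52.5% of all genes, and the wild-type sections alone gave 0 of the 9 and 46.3% of all genes in edgeR. C4b and Cfp were higher in spleen and Cfb and C3ar1 lower under all 15 alternatives, although each failed the threshold in some.

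**Figure D5:**
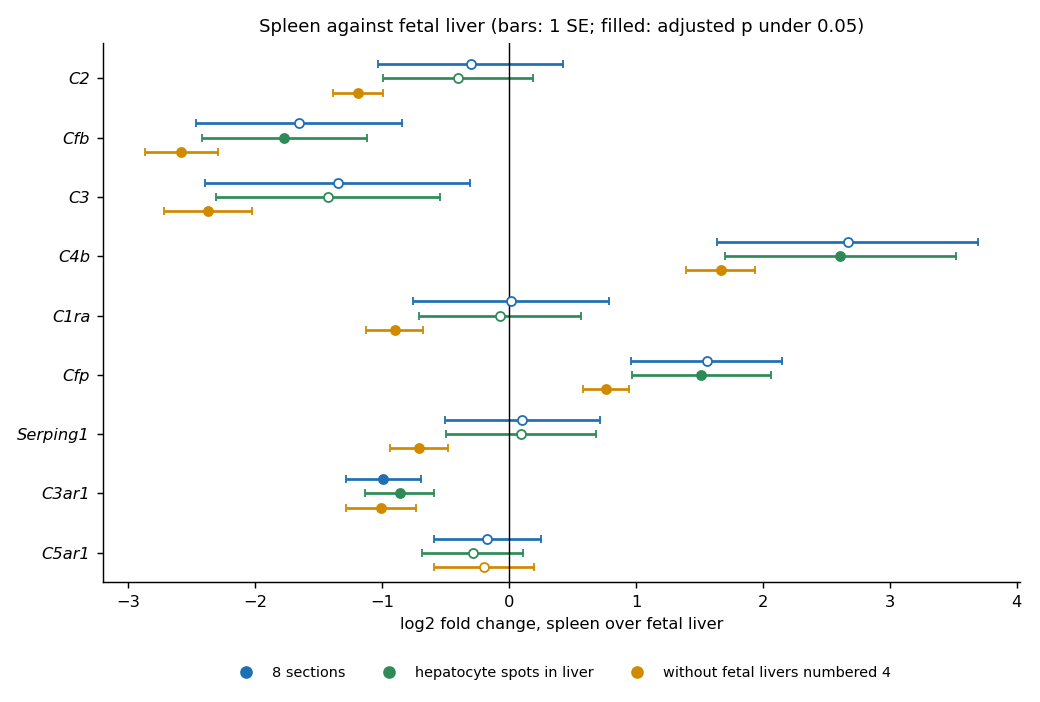
Log2 fold change of spleen over fetal liver for each gene in the 8 sections of the cross, with liver sums over hepatocyte spots, and without the fetal livers numbered 4; bars are 1 SE and filled points passed an adjusted p of 0.05. C4b (2.67, 2.61 and 1.67) and Cfp (1.56, 1.51 and 0.76) lie to the spleen side in all 3 fits, and C3ar1 is filled in all 3.

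Of the wider complement list 27 of 42 genes passed between the tissues, 9 higher and 18 lower in spleen. Where 25.6% of all genes were lower and 21.2% higher in spleen, 6 of 8 lectin-branch genes were lower and 1 was higher, Fcna (2.40, edgeR adjusted p = 0.0191). Of the 7 terminal-pathway genes 5 were lower and 2 were higher, C6 (1.54, edgeR adjusted p = 0.0436) and C7 (1.39, edgeR adjusted p = 0.0110), which were named after their values were seen, as was Fcna. Among the lower ones were Colec10 (-4.34, edgeR adjusted p = 4.65e-05), Masp1 (-4.20, edgeR adjusted p = 3.49e-04) and Hc, which encodes C5 (-5.69, edgeR adjusted p = 0.00138). Vtn, also 1 of the hepatocyte markers (-8.88, edgeR adjusted p = 0.00175), and Cfi, the protease that inactivates C3b (-5.66, edgeR adjusted p = 7.87e-04), were lower too. Cr2 (6.98, edgeR adjusted p = 8.92e-06), Itgax (7.29, edgeR adjusted p = 1.46e-04) and Itgb2 (2.89, edgeR adjusted p = 0.00121) were higher in spleen.

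For each gene, the genes with the most similar profile were those of highest Pearson r of log2(CPM + 1) over the 13 sections, among 12231 genes. They are given as a description, since sections share tissues and libraries. The purchased and cross sections also differ in feature table and software, and the part of that difference in r was not tested. C5ar1 was closest to the neutrophil genes Retnlg (r = 0.951) and Padi4 (0.945). Cfb was closest to Apoe (0.958) and Rbm47 (0.931), and C3 to Il18bp (0.921) and Fmo5 (0.913). Cfp was closest to Lst1 (0.981) and Lgals3bp (0.972), and C4b to Tmem140 (0.983) and Nceh1 (0.978). Serping1 was closest to Dcxr (0.973) and Rarres2 (0.963), and C2 to Rdh5 (0.975) and Phyhd1 (0.975). C1ra was closest to Dop1b (0.958) and Vnn3 (0.950). C3ar1 had the weakest likeness, to Emcn (0.920), an endothelial gene, and Tnfrsf19 (0.900).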

How the data were processed

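Visium probe-based libraries of formalin-fixed, paraffin-embedded mouse tissue were analysed, 1 library per section, in 14 sections. The deposited matrices give, for each spot and gene, raw UMI counts that the authors made with 10x Genomics software (Cell Ranger 4 by the file header for 4 purchased sections, spaceranger 2.1.1 and 3.1.2 for the 89-week and EDTA marrow sections, and spaceranger 4.0.1 for the cross), without normalization. The labels name mm10. Barcode, feature and spot position tables hold other values, per the file headers, and image scale factors were not used. Spots on tissue in which 1000 or more genes were detected were used, and their counts were summed per section, giving 37167 to 56182915 UMIs. A spot is not a replicate. With 2 sections per group, p-values measure the spread between sections. A count of 0 was read against a floor of 3 counts, and Poisson intervals are exact at 95%.

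Sums were tested with edgeR 4.0.16 (TMM, filterByExpr, glmQLFit and glmQLFTest) in R 4.3.3 with limma 3.58.1, at a Benjamini-Hochberg adjusted p under 0.05, and with DESeq2 1.42.0 as an alternative. The scripts were tested on simulated counts first. Other alternatives were upper-quartile factors, no low-count filter, all in-tissue spots, a replicate block, a joint fit, equal depth, selected spots and leaving out each section. Fetal liver numbers name litters in the study, and deviations of same-numbered livers from their genotype means correlated at 0.696 over 19156 genes, so the blocked value is given beside that result. Replicates were not duplicates of each other (lowest chi-square per degree of freedom 21.8). Purchased and cross sections differ in feature tables and software and were not tested against each other. Spot tiers, Pearson r and purchased sections carry no test. Sums and summaries were made in Python with numpy, pandas and scipy. Named genes were the 9 members, C1q genes, at most 12 called genes of the wider complement list per comparison and the 2 nearest genes of each member. The members and lists were chosen with earlier results of these data known. Some results of the wider complement list are not reported here.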

Additional observations from a re-analysis of the deposited data

Results flagged for a closer look

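The matrices of the purchased sections also hold spots off the tissue, which enter no comparison. The 9 complement genes together were above the floor of 3 counts there in 6 of 6 sections. Per 1000000 off-tissue UMIs they had 479 counts beside the E14.5 fetal liver (514 on tissue), 381 beside the E13.5 fetal liver (401 on tissue), 217 beside the P8 marrow (196 on tissue), 632 beside the 89-week marrow (601 on tissue), 1384 beside the adult spleen (1473 on tissue), and 488 beside the EDTA-decalcified marrow (592 on tissue, from 18 counts off and 22 on tissue). Off-tissue spots were shallower, with medians of 638 to 2598 UMIs outside the EDTA section. Their part in the contrasts between spots of 1 section was not tested. Groups of 1 or 2 sections were too small for a test of single outlying sections, and for the difference in knockout effect between tissues none of the 9 genes passed the threshold.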

How the results depend on the processing

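With 2 sections per group, single sections weighed heavily, and counting depth limited C3ar1 and C5ar1 most. Values are log2 fold changes, and calls are at an adjusted p under 0.05.

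Between knockout and wild-type fetal livers, 0 genes passed. DESeq2 called 7, the replicate block 157, hepatocyte spots 1, and hepatocyte spots with the replicate block (added after the data were seen) 25. Leaving out 1 section gave 0 to 109 genes and 0 to 1 of the 9 members. It moved C2 from -2.48 to 2.59, C3 from -4.42 to 3.40, C4b from -3.91 to 4.14, C1ra from -2.68 to 2.79, Cfb from -2.84 to 2.52, Cfp from -2.05 to 1.67, Serping1 from -2.51 to 1.27 and C3ar1 from -0.14 to 0.28. Most signs turned without wild-type liver 2. The cause was not tested.

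In spleen, 0 members passed, against 2 with upper-quartile factors, 1 with the replicate block and 0 to 1 on leaving out 1 section. Spleen numbers mark no stated pairing, and deviations of same-numbered spleens correlated at 0.0624. In that paired fit with a replicate block 4968 genes passed and C3 was at 0.56 (edgeR adjusted p = 0.0206). A joint fit of 8 sections called 0 genes, the white-pulp tier 1942, and leaving out 1 section 240 to 4972. C2 turned to 0.034 with DESeq2 and C1ra to -0.013 with upper-quartile factors. Leaving out 1 section moved Cfp from -0.26 to 0.020, C5ar1 from -1.04 to 0.41, C4b from -0.45 to 0.088 and Serping1 from -0.33 to 0.15.

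Between tissues, 1 member passed, against 2 with DESeq2 (52.5% of all genes), 2 with upper-quartile factors (42.1%), 0 in wild-type sections (46.3%), 4 with hepatocyte spots in liver, 8 without both livers numbered 4 (14054 genes), and 0 to 3 on leaving out 1 section (5744 to 12412 genes). DESeq2 turned C1ra to -0.23 and Serping1 to -0.12, and upper-quartile factors turned C2 to 0.21 and C5ar1 to 0.24. In wild-type sections C1ra was at -0.43, C5ar1 at 0.37 and Serping1 at -0.29. With hepatocyte spots C1ra was at -0.069, and without the livers numbered 4 C1ra was at -0.90 and Serping1 at -0.71. Leaving out 1 section moved C2 from -0.68 to 0.92, C3 from -1.88 to 0.36, C1ra from -0.40 to 1.32, Serping1 from -0.27 to 1.006 and C5ar1 from -0.53 to 0.10. For the interaction, 0 genes passed, against 9 with DESeq2, 1409 with the litter term and 0 to 2 on leaving out 1 section.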
